A study of Mus musculus with 6 samples.

Results

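The genes described here are 9 mouse genes of the lipoxygenase and leukotriene route, chosen by name from the 55385 mouse genes of the count table. They are the lipoxygenases Alox15, Alox12, Alox12b, Aloxe3, Alox8 and Alox5, and the leukotriene genes Alox5ap, Lta4h and Ltc4s. RNA was sequenced from PDVC57, an established mouse squamous carcinoma line, in 3 libraries labelled Sox2 KO (knockout of the transcription factor gene Sox2) and 3 labelled Sox2 overexpression. The design text describes carcinoma cells low or high in Sox2 taken from grafted tumours, and asks which Sox2-driven programmes act on neutrophils. The labels give no unmodified PDVC57 group, clone number, construct, host strain or age, so every difference below is overexpression against knockout. Nothing in the labels says that the replicates came from separate cultures or animals, so the p-values measure only the spread between these libraries, which may be technical.

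The libraries held 31247976 to 38543221 counts, and 25107 to 28684 genes had a count. The label was checked with Sox2 itself, at 49, 34 and 25 counts with knockout and 2566, 3790 and 4095 with overexpression. Epithelial markers were present in every library, at a summed 6277 to 9992 CPM (the count scaled by library size) with knockout and 16672 to 21226 CPM with overexpression. The knockout libraries also held fibroblast markers at a summed 53173 to 81041 CPM, against 246 to 388 CPM with overexpression, and all 10 of these markers were lower. Markers common to white blood cells summed to 32.2, 61.0 and 250 CPM in knockout replicates 1, 2 and 3, and to 2.11 to 4.19 CPM with overexpression. In bulk RNA, fewer cells of a type and less RNA per cell cannot be told apart.

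Lipoxygenases are iron enzymes that add oxygen to polyunsaturated fatty acids. Alox15 and Alox12 make hydroperoxides of arachidonic acid, while Alox12b and Aloxe3 act one after the other in the skin barrier, on linoleate carried by ceramides. Alox5 works with its membrane partner, the product of Alox5ap, to make leukotriene A4. Lta4h turns that into leukotriene B4, which attracts neutrophils, and Ltc4s joins it to glutathione to make leukotriene C4, the first cysteinyl leukotriene.

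Of the 9 genes, 7 passed the filter on low counts and were tested, and 2 of these passed a threshold of 0.05 on the adjusted p of the edgeR quasi-likelihood test. Alox15 rose and Ltc4s fell with Sox2 overexpression. Over all 18504 tested genes, 31.6% passed the same threshold, 13.6% higher and 18% lower with overexpression, so 2 of 7 is a share close to the background. Libraries were also scaled to the epithelial markers in place of all genes. In the main fit 13 of these 18 markers were called higher and 0 lower. Their median log2 fold change was 1.19, so this scaling lowers the fold change of every gene. Under it the median of all tested genes moved from -0.016 to -1.20. There 4 members passed (1 higher, 3 lower), and 2.41% of the genes called were higher. In the main fit the median log2 fold change of the 7 tested members was 0.35, beside -0.016 for all tested genes. Alox12b and Alox5 did not pass the filter and are described by their counts.

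**Figure D1:**
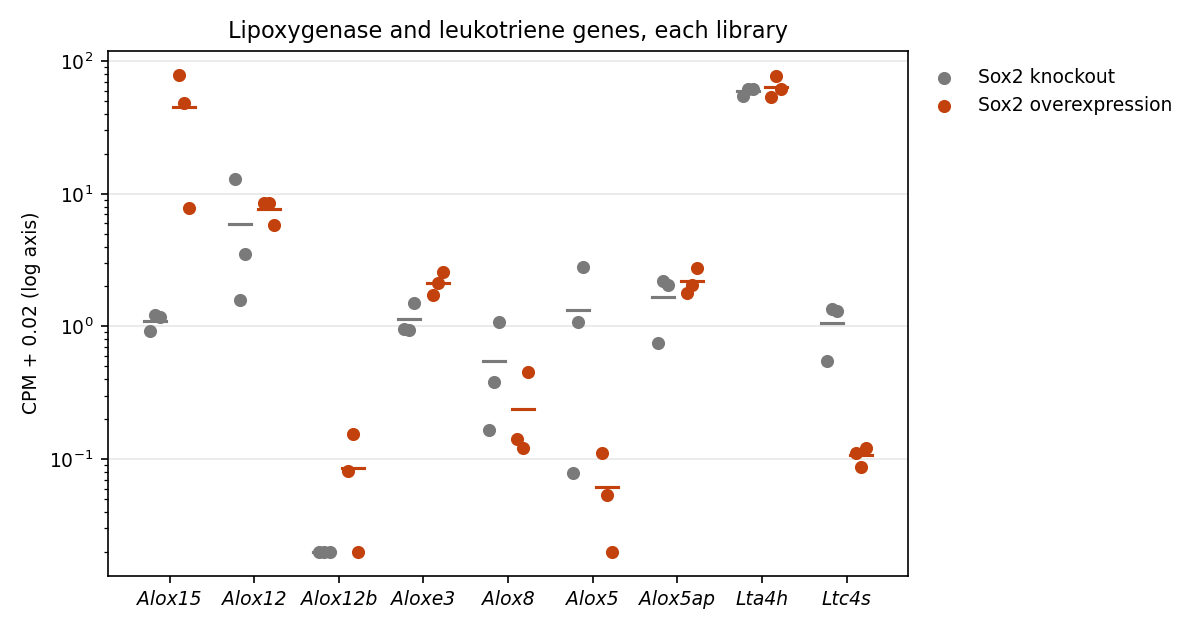
Level of each of the 9 genes in each of the 6 libraries, in CPM with 0.02 added so that 0 can be drawn on a log axis. Points are libraries and short lines are group means. The overexpression points of Alox15 lie above the knockout points and those of Ltc4s below them, while both groups of Lta4h lie at about the same level.

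The coding sequences of the lipoxygenases that share most of their bases are shown first, since similar genes can compete for reads. Alox15 was identical to Alox12e at 68.3% of aligned coding bases and to Alox12 at 67.3%. Alox12e is a neighbouring lipoxygenase gene, known as the epidermal type, that is not among the 9. The last 60 coding bases of each, stop codon included, are given from the GENCODE M21 transcripts, with capitals where a base differs from Alox15:

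Alox15: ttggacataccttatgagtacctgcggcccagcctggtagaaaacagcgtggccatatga

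Alox12e: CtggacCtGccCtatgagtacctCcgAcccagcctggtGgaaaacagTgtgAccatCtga

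Alox12: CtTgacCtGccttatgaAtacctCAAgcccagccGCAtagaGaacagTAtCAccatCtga

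Alox12e differed from Alox15 at 10 of these 60 bases and Alox12 at 17. The stretch ends in the codon before the stop, ata in Alox15 and atc in Alox12e and Alox12, both of which encode isoleucine. In this enzyme family the final isoleucine is known to hold the catalytic iron. Over whole transcripts, none of the 2379 stretches of 31 bases in Alox15 occurred in a transcript of another gene, and the same was true of the 2392 in Alox12e. For Ltc4s 17.4% of such stretches also lay in Gm26542, and for Alox5ap 10.7% lay in Gm19719.

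Alox15 was the member that rose. It lies on chromosome 11 (70344152 to 70352031, minus strand, GRCm38) with 14 exon blocks, and encodes the leukocyte-type lipoxygenase of the mouse. Its counts were 31, 36 and 42 with knockout, or 0.909, 1.19 and 1.15 CPM. With overexpression they were 2592, 1433 and 306, or 79.1, 48.5 and 7.74 CPM. The groups did not overlap, with the overexpression libraries above, but these spread widely among themselves, and replicate 3 was the lowest of them. The group means were 1.08 ± 0.153 and 45.1 ± 35.8 CPM (mean ± SD, n = 3 per group), and the fitted log2 fold change was 5.38 ± 0.78 (SE; edgeR, adjusted p = 0.000974). Without overexpression replicate 1 the log2 fold change was 4.72 and the overexpression mean 28.1 CPM, and without replicate 3 they were 5.89 and 63.8 CPM.

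Alox12e behaved much like its neighbour. Its counts were 77, 33 and 37 with knockout and 3506, 3869 and 1016 with overexpression. Again every overexpression library lay above the knockout libraries and replicate 3 was the lowest of its group. The means were 1.45 ± 0.696 and 87.9 ± 55.1 CPM (mean ± SD, n = 3 per group), and the fitted log2 fold change was 5.91 ± 0.66 (SE; edgeR, adjusted p = 0.000213). The genes Alox12e and Alox15 lie 21524 bases apart on the same strand, with no protein-coding gene between them.

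Alox12, the platelet-type lipoxygenase, lies 60257 bases beyond Alox12e on the same strand of chromosome 11 (70241457 to 70255353). Its knockout libraries had 437, 47 and 127 counts, or 12.8, 1.55 and 3.48 CPM. Its overexpression libraries had 279, 253 and 228 counts, or 8.51, 8.56 and 5.77 CPM. The groups overlapped, because knockout replicate 1 was above every other library and the other knockout libraries were below the overexpression group. The means were 5.95 ± 6.02 and 7.61 ± 1.60 CPM (mean ± SD, n = 3 per group), and the fitted log2 fold change was 0.35 ± 0.64 (SE; edgeR, adjusted p = 0.702). This value turned on knockout replicate 1, and without it the log2 fold change was 1.60 (edgeR, adjusted p = 0.0215). Without knockout replicate 2 it was -0.093 (edgeR, adjusted p = 0.915), and over all alternatives the adjusted p ran from 0.0215 to 0.947. Scaled to the epithelial markers it was -0.73 (edgeR, adjusted p = 0.240). The summed level of 7 platelet markers was 16.9 to 19.8 CPM with knockout and 11.9 to 13.2 CPM with overexpression. Most of the knockout sum came from Itga2b, at 10.1, 16.0 and 12.6 CPM in replicates 1, 2 and 3. Within the knockout group Ppbp (4.89, 2.51 and 4.08 CPM), Gp5 (38, 27 and 27 counts), Gp1bb (12, 0 and 0 counts) and Gp9 (4, 0 and 0 counts) were highest in replicate 1, as Alox12 was. The other platelet markers were not, since Itga2b was lowest in replicate 1 and Pf4 (2, 6 and 17 counts) was highest in replicate 3. Gp6 (9, 8 and 1 counts) was about level in replicates 1 and 2. The part of platelets in the level of Alox12 was not tested.

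**Figure D2:**
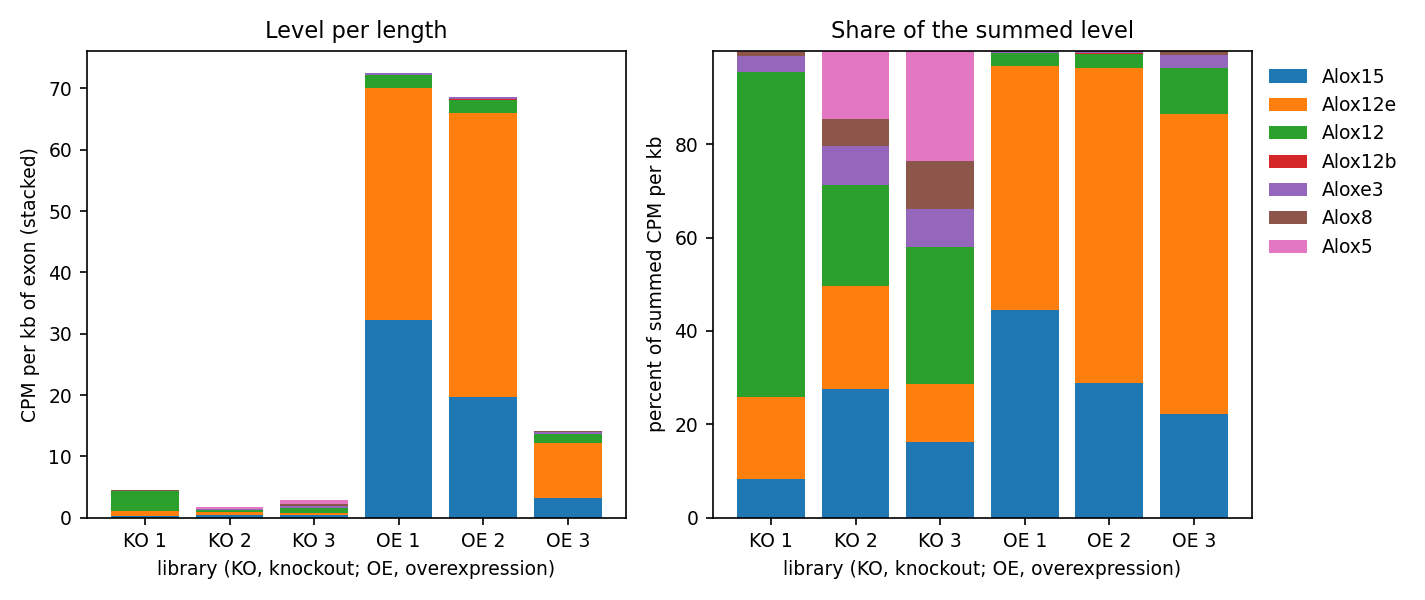
Stacked bars of the levels of the 6 lipoxygenase genes and Alox12e in each library, as CPM per kb of exon on the left and as a percent of their sum on the right. Alox15 and Alox12e form most of each overexpression bar, and Alox12 holds 69.6% of the bar of knockout replicate 1.

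Divided by exon length, levels of different genes can be set side by side. Of the summed CPM per kb of the 7 lipoxygenase genes, Alox12e held 52.2%, 67.5% and 64.1% in overexpression replicates 1, 2 and 3, and Alox15 held 44.4%, 28.8% and 22.2%. In the knockout libraries Alox15 held 8.22%, 27.6% and 16.2% of a much smaller sum, and Alox12 held 69.6%, 21.7% and 29.5%. Alox5 held 0.317%, 14.7% and 23.5% in the knockout libraries and at most 0.0307% with overexpression. No single lipoxygenase led in all 3 knockout libraries, whereas Alox12e led in all 3 with overexpression. These shares are of RNA levels and were not tested.

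Aloxe3, Alox12b and Alox8 were low in both groups. They lie beside each other on chromosome 11 between 69125896 and 69197843. Aloxe3 and Alox12b are on the plus strand and Alox8 is on the minus strand. Aloxe3, which isomerises the hydroperoxide that Alox12b makes, had 32, 28 and 54 counts with knockout and 56, 62 and 101 with overexpression. In CPM the groups did not overlap, as they did not for 50.9% of all tested genes. The means were 1.11 ± 0.317 and 2.12 ± 0.423 CPM (mean ± SD, n = 3 per group), and the fitted log2 fold change of 0.92 ± 0.36 (SE) did not pass the threshold (edgeR, adjusted p = 0.0803). It did without knockout replicate 3, where the log2 fold change was 1.19 (edgeR, adjusted p = 0.0455, with a range of 0.0455 to 0.552 over the alternatives). Scaled to the epithelial markers the log2 fold change was -0.30 (edgeR, adjusted p = 0.552).

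Alox12b had 0 counts in every knockout library and 2, 4 and 0 counts in overexpression replicates 1, 2 and 3. A count of 0 allows up to 3 counts, which is 0.0822 to 0.0992 CPM in a knockout library. A small difference in Alox12b, near this floor, was therefore not detectable at this depth. Aloxe3 was measured well above that floor, so the gene for the second enzyme of the pair had reads where the gene for the first was at or near 0.

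Alox8 is known for making hydroperoxides in mouse skin. It had 5, 11 and 39 counts with knockout and 4, 3 and 17 with overexpression, and replicate 3 was the highest library of each group. The groups overlapped, with means of 0.526 ± 0.482 and 0.218 ± 0.184 CPM (mean ± SD, n = 3 per group). The fitted log2 fold change was -1.23 ± 0.82 (SE; edgeR, adjusted p = 0.288). Scaled to the epithelial markers it was -2.50 and passed the threshold (edgeR, adjusted p = 0.0210), and without knockout replicate 3 it was -0.15 (edgeR, adjusted p = 0.912).

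Alox5 (chromosome 6, 116410077 to 116461178, minus strand) encodes the enzyme that opens the leukotriene route. Its counts were 2, 32 and 102 with knockout and 3, 1 and 0 with overexpression, in the order of the replicate numbers. Knockout replicates 2 and 3 held nearly all of its reads, while knockout replicate 1 was as low as the overexpression libraries, so the groups overlapped. The ratio of its summed counts per depth, knockout over overexpression, was 34.3, with a 95% interval of 13.1 to 128 that covers counting error only. Without knockout replicate 3 the ratio was 13.5 (4.80 to 52.2) and without knockout replicate 1 it was 51.1 (19.5 to 190). Alox5 entered the fit where no filter was used (log2 fold change -4.86, edgeR, adjusted p = 7.95e-05). It also entered 4 of the 6 fits with 1 library left out, where it passed the filter only through its reads in knockout replicates 2 and 3. The adjusted p-values (edgeR) were 0.00184 without knockout replicate 1, 0.0355 without overexpression replicate 1, 0.0985 without overexpression replicate 2 and 0.0719 without overexpression replicate 3. The smallest came from leaving out the knockout library that was as low as the overexpression group. Since entry depended on the group where Alox5 was high, these p-values are a description and no test of it.

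The knockout libraries with more Alox5 also had higher levels of white blood cell markers. Ptprc, the gene of the CD45 antigen carried by white blood cells, was counted 363, 654 and 3215 times in knockout replicates 1, 2 and 3, and 14, 16 and 20 times with overexpression. All 4 white blood cell markers were lower with overexpression, and none of them was at 0 there. Among lists for single cell types, 6 of 6 tested T and NK cell markers were lower, with sums of 6.36, 13.3 and 58.3 CPM with knockout and 0.4398 to 0.8238 CPM with overexpression. Neutrophil markers summed to 4.66 to 8.74 CPM with knockout and 2.68 to 10.01 CPM with overexpression, and macrophage markers to 15.8 to 26.1 and 13.9 to 28.01 CPM. Within these sums the markers differed: 1 of 3 tested neutrophil markers (Csf3r) and 2 of 7 tested macrophage markers (C1qa and Lyz2) were lower and 0 were higher. Ly6g, Csf1r and Cd68, which hold much of the sums, did not pass the threshold. S100a8 and S100a9, not tested, had 2, 8 and 70 and 4, 8 and 14 counts with knockout, against 1, 0 and 0 and 0 throughout with overexpression. Of the untested macrophage markers, Adgre1 had 5, 24 and 36 counts with knockout and 0, 1 and 2 with overexpression. Fcgr1 had 6, 9 and 9 against 1, 1 and 2, and Mrc1 had 88, 27 and 10 against 3, 9 and 7. The part of these cells in the level of Alox5 was not tested.

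Alox5ap (chromosome 5, 149264767 to 149288153, plus strand), the membrane partner that presents arachidonic acid to the Alox5 enzyme, did not follow Alox5. Its counts were 25, 66 and 74 with knockout and 58, 60 and 108 with overexpression. Knockout replicate 1 was the lowest library, overexpression replicate 3 the highest, and the groups overlapped. The means were 1.65 ± 0.796 and 2.18 ± 0.498 CPM (mean ± SD, n = 3 per group), and the fitted log2 fold change was 0.40 ± 0.44 (SE; edgeR, adjusted p = 0.521), or -0.82 scaled to the epithelial markers. Its exons overlap those of Gm19719 on the other strand by 189 bases. The strand setting of the counting is not given in the sources used here, but Gm19719 had only 21, 9 and 2 counts with knockout and 1 in each overexpression library.

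Lta4h, the hydrolase that makes leukotriene B4, had the highest level per kb of the leukotriene genes in both groups. It lies on chromosome 10 (93453411 to 93484875, plus strand) with 19 exon blocks. Its counts were 1854, 1867 and 2239 with knockout and 1747, 2272 and 2428 with overexpression, and the groups overlapped. The means were 59.1 ± 4.17 and 63.9 ± 12.0 CPM (mean ± SD, n = 3 per group), and the fitted log2 fold change was 0.11 ± 0.17 (SE; edgeR, adjusted p = 0.647). Without overexpression replicate 2 the log2 fold change was -0.025 (edgeR, adjusted p = 0.889). Scaled to the epithelial markers, which moved the median of all tested genes to -1.20, it was -1.09 (edgeR, adjusted p = 0.00121).

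Ltc4s, the synthase of leukotriene C4, was the member that fell. It is a short gene on chromosome 11 (50236461 to 50238616, minus strand) with 4 exon blocks. Its counts were 18, 40 and 47 with knockout, or 0.528, 1.32 and 1.29 CPM. With overexpression they were 3, 2 and 4, or 0.0915, 0.0677 and 0.101 CPM, at or near the floor of 3 counts. The groups did not overlap, and the overexpression libraries lay close together. The means were 1.05 ± 0.449 and 0.0868 ± 0.0173 CPM (mean ± SD, n = 3 per group), and the fitted log2 fold change was -3.52 ± 0.57 (SE; edgeR, adjusted p = 0.00175). As a ratio of summed counts per depth, 105 counts against 9, knockout was 11.8 times as high, with a 95% counting interval of 5.98 to 26.5. The size of the fall rests on these 9 counts.

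The exons of Ltc4s overlap those of Gm26542 on the other strand by 268 bases, and reads within that overlap cannot be told apart without strand. Gm26542 had 41, 31 and 3 counts with knockout and 16, 14 and 27 with overexpression. It was lowest in knockout replicate 3, where Ltc4s had the most counts, and its log2 fold change was -0.47 (edgeR, adjusted p = 0.662).

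Mast cells are a known source of Ltc4s, and their markers were measured beside it. Of 9 mast cell markers 4 were tested, and all 4 were lower with overexpression. Their sum was 22.1, 27.8 and 22.1 CPM with knockout and 0.607 to 0.793 CPM with overexpression. Mcpt4 and Cpa3, which encode mast cell proteases, had 162, 62 and 3 and 64, 26 and 6 counts with knockout, and both were at 0 in every overexpression library, as were Tpsab1 and Fcer1a. The mast cell markers did not share 1 order among the knockout libraries. Mcpt4, Cpa3, Cma1, Tpsb2 and Tpsab1 were highest in replicate 1, where Ltc4s was lowest. Hdc (5.77, 13.8 and 10.1 CPM), Kit (2.02, 7.14 and 9.89 CPM), Ms4a2 (2, 6 and 7 counts) and Fcer1a (2, 6 and 4 counts) were lowest in replicate 1, as Ltc4s was. The sum of the fibroblast markers, at 53173, 81041 and 76222 CPM in knockout replicates 1, 2 and 3, was lowest in replicate 1. Within that list Pdgfra (259, 258 and 223 CPM) and Pdgfrb (224, 208 and 187 CPM) were highest in replicate 1. The other fibroblast markers were lowest in replicate 1, as Ltc4s was. The part of either cell type in the level of Ltc4s was not tested.

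**Figure D3:**
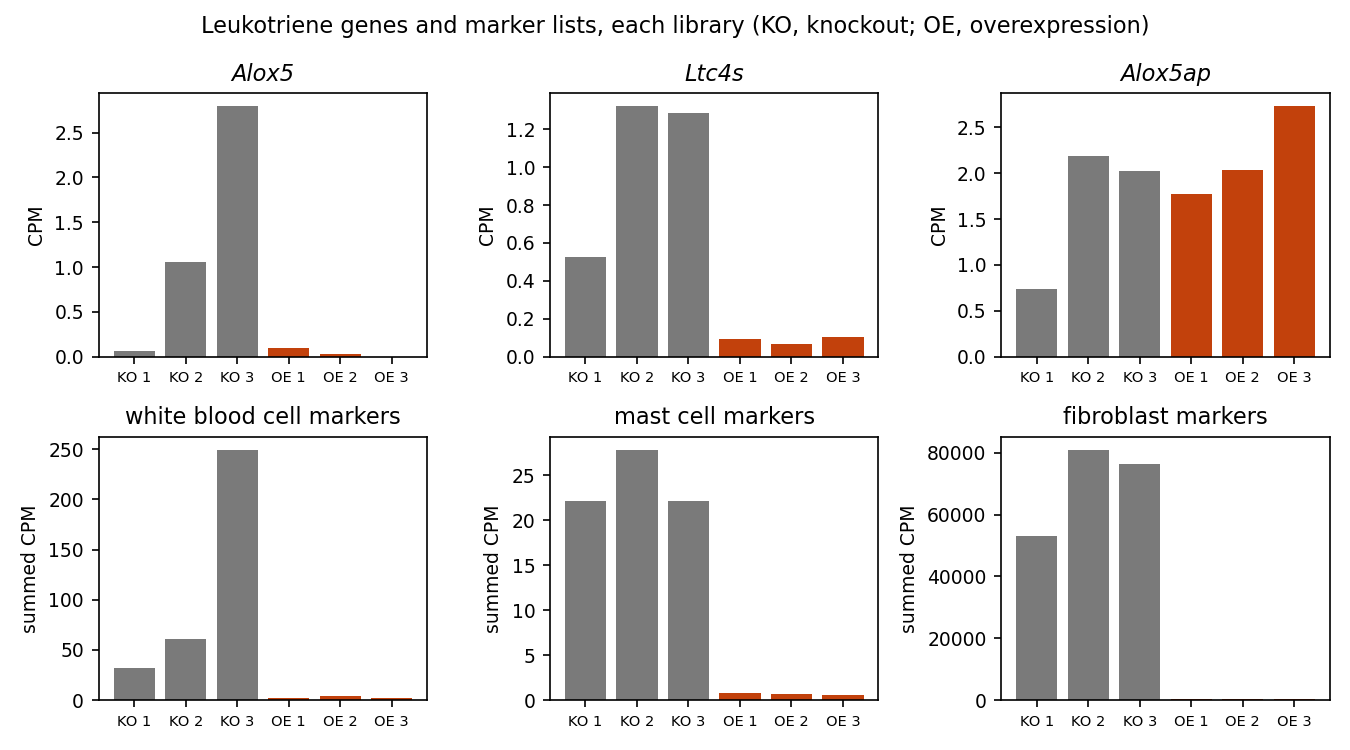
Bars give the level of Alox5, Ltc4s and Alox5ap (CPM, upper row) and the summed level of 3 marker lists (CPM, lower row) in each library, each on its own axis from 0. Alox5 and the white blood cell markers are both highest in knockout replicate 3, Ltc4s and the fibroblast markers are low in every overexpression library, and Alox5ap is not.

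The order of the levels per kb of exon changed between the groups. With knockout, Lta4h came first at 9.69 ± 0.683 CPM per kb (SD, n = 3), apart from all others. Alox12, Alox5ap and Ltc4s followed at 1.46, 1.16 and 1.03 CPM per kb with ranges that overlapped from each to the next. Alox15, Alox5, Aloxe3 and Alox8 came after them at 0.441, 0.318, 0.174 and 0.148 CPM per kb, again with overlapping ranges, and Alox12b was at 0.

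With overexpression, Alox15 had the highest mean at 18.4 ± 14.6 CPM per kb (SD, n = 3), but its range overlapped that of Lta4h at 10.5 ± 1.96. Alox12 and Alox5ap followed at 1.86 and 1.53 CPM per kb with overlapping ranges, and Aloxe3 stood apart below them at 0.331. Ltc4s, Alox8, Alox12b and Alox5 were last, at 0.0856 CPM per kb or less, with ranges that overlapped from each to the next.

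The nearest protein-coding genes were read beside the members. Of the 9 genes 6 lie on chromosome 11. Alox15 and Alox12e rose beside Pelp1, whose log2 fold change was 0.40 (edgeR, adjusted p = 0.127). Rnasek, 1615 bases from Alox12, rose by 0.57 on the log2 scale (edgeR, adjusted p = 0.0446). Mgat4b and Maml1, on the sides of Ltc4s, had log2 fold changes of 0.58 and 0.39 (edgeR, adjusted p = 0.0569 and 0.0641), while Ltc4s fell. Medag, the nearest protein-coding gene above Alox5ap at 123596 bases, fell from 71.8 to 0.528 CPM (edgeR, adjusted p = 3.03e-06), while Alox5ap did not pass the threshold. Uspl1, on the other side of Alox5ap, had a log2 fold change of 0.050 (edgeR, adjusted p = 0.801).

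Over the 6 libraries, the pattern of log2 CPM most like that of Alox15 was found in Gde1, Mmgt2, Tor3a, Apol9b and Irf9, with Pearson's r of 0.990 to 0.996 among 11407 genes. For Ltc4s the closest were Selenop, Cmah, Anp32a, Pard3b and Sel1l3, with r of at least 0.996 among 11408 genes. The group difference itself carries much of each r, so the values are a description with no test. Gde1 changed from 34.1 to 62.3 CPM, a log2 fold change of 0.87, far less than Alox15. Selenop, which encodes a selenium carrier protein, changed from 151 to 6.96 CPM, a log2 fold change of -4.43.

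Genes around the members were counted in lists of the steps before and after them. Of 65 such genes, Alox12e included, 52 were tested and 20 passed the threshold, 9 higher and 11 lower, with a median log2 fold change of 0.061. Scaled to the epithelial markers, 43 passed, 5 higher and 38 lower. Their share, and that of each list below, can be read against the 31.6% of all tested genes, 13.6% higher and 18% lower.

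**Figure D4:**
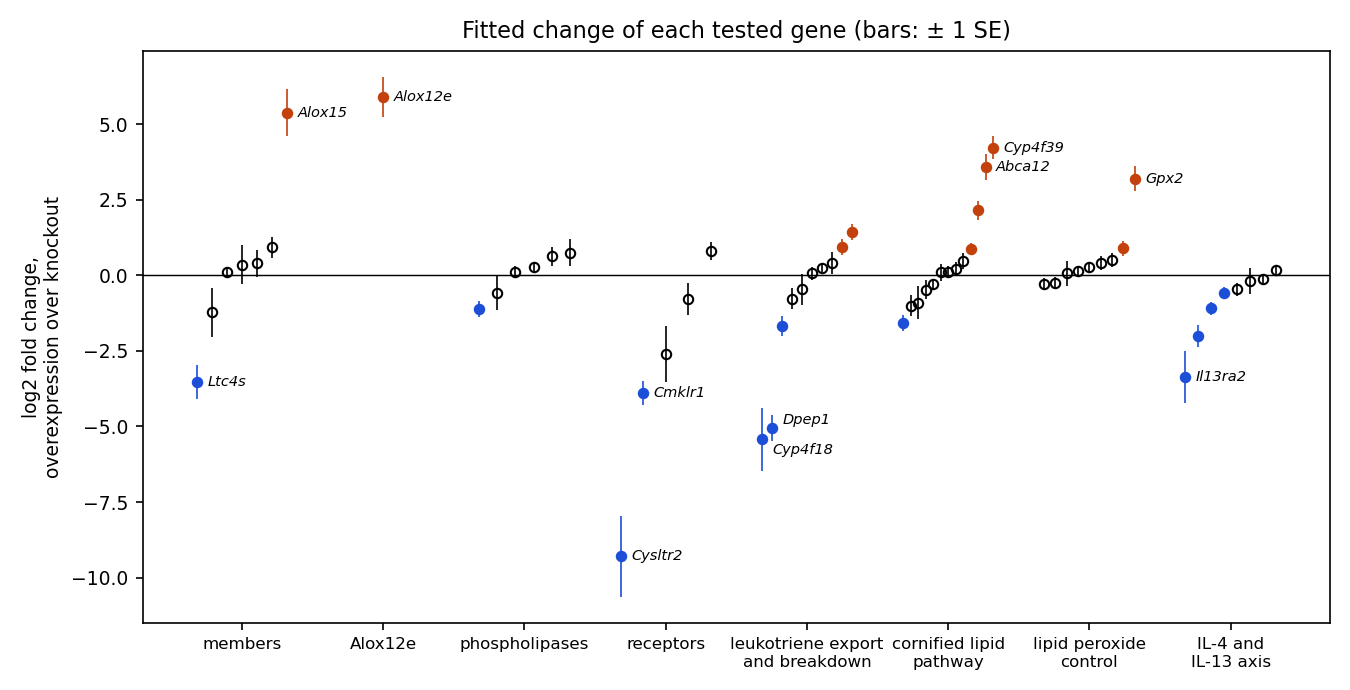
Log2 fold change (overexpression over knockout) of each tested member and pathway gene, with bars of 1 standard error, and filled points where the adjusted p is under 0.05 in the edgeR test. Receptor and leukotriene breakdown genes reach far below 0, and cornified lipid genes reach above it. The point of Cysltr2 depends on the prior count, since its overexpression libraries are all at 0.

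Substrate release is the step in which phospholipases free arachidonic acid. Of 11 genes 6 were tested, 0 rose and 1 fell. Pla2g4b, a cytosolic phospholipase gene, fell from 5.18 ± 0.607 to 2.39 ± 0.234 CPM (mean ± SD, n = 3 per group), with a log2 change of -1.11 (edgeR, adjusted p = 0.0123). Pla2g4a, the main cytosolic phospholipase gene for eicosanoids, had a log2 fold change of 0.62 that did not pass (edgeR, adjusted p = 0.168). Its overexpression libraries were at 58.8, 22.3 and 51.4 CPM against 26.3 to 31.9 CPM with knockout, and without overexpression replicate 2 the log2 fold change was 0.96 (edgeR, adjusted p = 0.00313). With no filter it was 0.66 (edgeR, adjusted p = 0.0441), and scaled to the epithelial markers -0.54 (edgeR, adjusted p = 0.158).

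Among receptors for these lipids, 5 of 9 were tested, 0 rose and 2 fell. Cysltr2, a receptor for cysteinyl leukotrienes, had 56, 24 and 165 counts with knockout and 0 in every overexpression library, so it was at least 22.9-fold lower against a floor of 3 counts per library. Without knockout replicate 3 that bound was 12.0-fold. Cmklr1, a receptor for chemerin and resolvins, fell from 3.92 ± 0.788 to 0.259 ± 0.0781 CPM (mean ± SD, n = 3 per group), with a log2 change of -3.88 (edgeR, adjusted p = 0.000125). Both receptors, like Ltc4s, were higher in the knockout group, which also held more fibroblast and white blood cell markers. Within that group Cysltr2 was highest in replicate 3, as the white blood cell markers were, but lowest in replicate 2, where they were not. Endothelial markers summed to 30.3, 52.2 and 121 CPM in knockout replicates 1, 2 and 3, and to 13.3 to 20.1 CPM with overexpression. Most of the overexpression sum was Tek (16.9, 9.34 and 15.1 CPM), which was not called. The other 5 of the 6 tested markers were lower, with Cdh5 at 0, 1 and 3 and Kdr at 2, 2 and 4 counts with overexpression. Of the endothelial markers, Cdh5 (186, 141 and 560 counts) and Egfl7 (116, 83 and 266 counts) were also lowest in knockout replicate 2, while the others were lowest in replicate 1. Cmklr1 was lowest in knockout replicate 3 (4.57, 4.13 and 3.04 CPM). The part of any of these cells in the receptor levels was not tested.

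The receptor for leukotriene B4, Ltb4r1, had 17, 10 and 46 counts with knockout and 0, 2 and 10 with overexpression. Its log2 fold change of -2.60 did not pass the threshold (edgeR, adjusted p = 0.0606, with a range of 0.00364 to 0.194 over the alternatives). It passed in 5 of 13 alternatives, with adjusted p-values of 0.0349 without overexpression replicate 3 (log2 fold change -4.26), 0.0236 with the replicate block, 0.0197 with no filter and 0.00364 scaled to the epithelial markers (edgeR), and 0.0423 in the DESeq2 Wald test. The other receptor for cysteinyl leukotrienes, Cysltr1, had 2, 1 and 11 counts with knockout and 14, 3 and 7 with overexpression, and was not tested.

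Leukotriene export and breakdown genes moved in both directions, with 10 of 12 tested, 2 higher and 3 lower. Ptgr1, whose enzyme inactivates leukotriene B4, rose from 21.6 ± 5.21 to 58.4 ± 18.1 CPM (mean ± SD, n = 3 per group), with a log2 change of 1.44 (edgeR, adjusted p = 0.00332). Mgst3, a glutathione transferase gene of the same family as Ltc4s, rose from 24.8 ± 3.92 to 47.4 ± 17.9 CPM (mean ± SD, n = 3 per group), with a log2 change of 0.94 (edgeR, adjusted p = 0.0270). This call was lost without knockout replicate 2 (adjusted p = 0.0662, edgeR) or 3 (adjusted p = 0.0837, edgeR). Scaled to the epithelial markers, Ptgr1 was not called (log2 fold change 0.21, edgeR, adjusted p = 0.503) and Mgst3 was at -0.24.

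Ggt5 and Dpep1, whose enzymes trim cysteinyl leukotrienes outside the cell, fell. Ggt5, which removes glutamate from leukotriene C4, had 19.1, 51.9 and 46.9 CPM with knockout and 10.8, 12.99 and 13.1 CPM with overexpression, a log2 fold change of -1.67 (edgeR, adjusted p = 0.00572). Dpep1, the dipeptidase of the next step, had 28.02, 76.5 and 77.8 CPM with knockout and 1.77, 2.23 and 1.47 CPM with overexpression, a log2 fold change of -5.06 (edgeR, adjusted p = 4.35e-05). Both were lowest of the knockout group in replicate 1, as Ltc4s and the sum of the fibroblast markers were. Their relatives Ggt1 and Dpep2 did not pass the threshold, with log2 fold changes of -0.77 and -0.46.

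Cyp4f18, a leukotriene B4 hydroxylase known from neutrophils, had 11, 33 and 59 counts with knockout and 0, 2 and 0 with overexpression. The ratio of summed counts per depth, knockout over overexpression, was 52.0 with a 95% counting interval of 14.04 to 435. The fitted log2 fold change was -5.42 (edgeR, adjusted p = 0.00448). It was -8.13 without overexpression replicate 2, the only one of that group with a count, and -4.79 without overexpression replicate 3. Abcc1, the exporter of leukotriene C4, was at 91.7 ± 5.38 and 109 ± 10.1 CPM (mean ± SD, n = 3 per group), with a log2 change of 0.25 that did not pass (edgeR, adjusted p = 0.216). Scaled to the epithelial markers, which moved the median of all tested genes to -1.20, it was -0.94 and passed (edgeR, adjusted p = 0.00137).

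The cornified lipid genes share the skin barrier route with Alox12b and Aloxe3, and of 14 genes 13 were tested, 4 rose and 1 fell. Cyp4f39, which hydroxylates the very long fatty acids of barrier ceramides, rose from 0.411 ± 0.0981 to 7.77 ± 2.84 CPM (mean ± SD, n = 3 per group), with a log2 change of 4.22 (edgeR, adjusted p = 7.26e-05). Abca12, the transporter that loads barrier lipids into granules, rose from 0.248 ± 0.0396 to 3.01 ± 1.07 CPM (mean ± SD, n = 3 per group), with a log2 change of 3.58 (edgeR, adjusted p = 0.000285). Tgm1, which cross-links the envelope, had a log2 fold change of 2.15 (edgeR, adjusted p = 0.00105).

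Slc27a4, a fatty acid transporter gene, had a log2 fold change of 0.87 (edgeR, adjusted p = 0.00598), or -0.32 with epithelial scaling. Ugcg, the glucosylceramide synthase gene, was the one that fell, from 104 ± 34.4 to 34.7 ± 6.10 CPM (mean ± SD, n = 3 per group), with a log2 change of -1.58 (edgeR, adjusted p = 0.00231). Other barrier genes did not pass, among them Cers3, Elovl4 and Nipal4 with log2 fold changes of 0.11, 0.47 and -0.48. Markers of keratinocyte differentiation summed to 43.2 to 114 CPM with knockout and 626 to 884 CPM with overexpression, and 7 of their 12 tested genes were higher and 1 lower. Most of the overexpression sum came from Sprr1a (466, 325 and 429 CPM), Krt13 (213, 135 and 176 CPM) and Krt4 (141, 116 and 83.0 CPM). Lor, Flg, Sprr1b and Sprr3 were also higher, and Sbsn was lower. Krt10, at 7.64 and 3.28 CPM with knockout and overexpression, did not pass. Krt1, not tested, had 1, 91 and 589 counts with knockout and 6, 0 and 3 with overexpression.

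Genes that shape the level of lipid peroxides, the products of lipoxygenases, were all tested, and 2 of 9 rose and 0 fell. Gpx2, a glutathione peroxidase gene of epithelia, had 11, 21 and 15 counts with knockout and 104, 147 and 196 with overexpression, a log2 fold change of 3.20 (edgeR, adjusted p = 0.000458). Gpx4, whose enzyme reduces peroxides of membrane lipids, rose from 144 ± 10.9 to 268 ± 104 CPM (mean ± SD, n = 3 per group), with a log2 change of 0.90 (edgeR, adjusted p = 0.0266). The call of Gpx4 was lost without knockout replicate 1, 2 or 3, with adjusted p-values (edgeR) of 0.0716, 0.0624 and 0.0714, and scaled to the epithelial markers its log2 fold change was -0.31.

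The cytokines IL-4 and IL-13, acting through Stat6, are known inducers of Alox15 in several cell types. In their list 8 of 9 genes were tested, 0 rose and 4 fell, beside 18% lower over all tested genes. Il13ra1, a signalling receptor chain, fell from 77.4 ± 13.5 to 36.2 ± 9.09 CPM (mean ± SD, n = 3 per group), with a log2 change of -1.10 (edgeR, adjusted p = 0.00577). Il2rg, the shared cytokine receptor chain of blood cells, and Il13ra2, a receptor known as a decoy, had log2 fold changes of -1.997 and -3.36 (edgeR, adjusted p = 0.00342 and 0.0172). The value of Il13ra2 was -2.55 without knockout replicate 3. In knockout replicates 1, 2 and 3 Il2rg was at 11.4, 16.3 and 30.9 CPM and Il13ra2 at 1.11, 1.16 and 3.62 CPM. Both were highest in replicate 3, as the white blood cell markers were, and so was Jak1 (158, 204 and 256 CPM). Il13ra1 (62.0, 87.4 and 82.9 CPM) was highest in replicate 2. The part of other cells in the levels of these genes was not tested.

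Jak1, the kinase of these receptors, had a log2 fold change of -0.58 (edgeR, adjusted p = 0.0453). Its call was lost without knockout replicate 2 or 3 or any 1 of the overexpression libraries, with adjusted p-values (edgeR) of 0.0971 to 0.176. Stat6 itself had a log2 fold change of 0.17 (edgeR, adjusted p = 0.381), at 100.05 ± 5.64 and 113 ± 10.8 CPM (mean ± SD, n = 3 per group). Scaled to the epithelial markers, which moved the median of all tested genes to -1.20, the log2 fold change of Stat6 was -1.03 and passed (edgeR, adjusted p = 0.00130). Il4 had 38, 40 and 30 counts with knockout and 29, 17 and 54 with overexpression, and Il13 had 16, 12 and 1 against 0, 1 and 1.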

How the data were processed

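RNA was sequenced from 6 libraries, made with a low-input kit per the labels' protocols. The authors deposited 1 table of raw counts, whole numbers per gene that were not normalized. The submitters' processing notes name kallisto 0.44.0 and mm10 without a role; counts from kallisto would be rounded estimates. The strand setting and the annotation are not given in the sources used here. Of 55481 rows, 96 name no mouse gene; these were left out and made up at most 2.23e-05% of any library.

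Columns were matched to groups through the labels. Genes were filtered with filterByExpr (minimum count 10, total 15), scaled with TMM, and tested with the quasi-likelihood F-test in edgeR 4.0.16 (R 4.3.3), all 6 libraries in 1 fit with group as the only term. P-values were adjusted (Benjamini-Hochberg) over 18504 tested genes, threshold 0.05. The standard error is the log2 fold change divided by the square root of F. CPM uses the TMM library sizes, and CPM per kb the exon length of GENCODE M21 (GRCm38). A count of 0 allows up to 3 counts, 0.0759 to 0.101 CPM in these libraries; floors and counting intervals cover counting error only. Coding sequences were aligned with Biopython 1.88. The fit was tested on simulated data.

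The members and lists were chosen with earlier results of these data known. All members are described; pathway genes are named where the adjusted p is under 0.05, where they define a step (Pla2g4a, Ltb4r1, Cysltr1, Abcc1, Gpx4, Stat6), or as the smallest p of their list; other pathway genes were named after their values were seen. One listed gene is not reported here and enters no list count. The 5 genes most like a called member had the highest Pearson's r of log2 CPM (prior count 2), leaving out predicted, mitochondrial and ribosomal protein genes and those under an average log2 CPM of 1. Alternatives were RLE (the size factors of DESeq2 1.42.0), upper-quartile scaling, scaling to the epithelial list, no filter, a replicate block, robust dispersion, the DESeq2 Wald test and leaving out each library. The labels give no batch or date. Besides the marker lists in the results, a list for eosinophils was read for values only (0.381 to 1.04 CPM with knockout, 0.152 to 0.744 CPM with overexpression).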

Additional observations from a re-analysis of the deposited data

Results flagged for a closer look

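The count table has a row for mCherry, a fluorescent reporter, which enters no comparison above. It had 8 counts in knockout replicate 3, 1 count in knockout replicate 2 and 0 in the other 4 libraries. The value in knockout replicate 3 was above the 3 counts that a count of 0 allows.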

How the results depend on the processing

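Of 416 alternative fits of 32 named genes, 383 kept the direction and side of the threshold; Alox15, Alox12e and Ltc4s kept both in all 13 of theirs, with log2 fold changes of 4.18 to 5.89, 4.76 to 6.39 and -4.72 to -3.31. Scaling to the epithelial list moved the median log2 fold change of all genes from -0.016 to -1.20. Under it 4 members passed the threshold (1 higher, 3 lower), 43 pathway genes (5 higher, 38 lower) and 14461 of all genes, of which 2.41% were higher. The members then lower were Ltc4s, Alox8 (log2 fold change -2.50, adjusted p = 0.0210) and Lta4h (-1.09, adjusted p = 0.00121), by edgeR. The same scaling reversed Alox12 (-0.73), Aloxe3 (-0.30), Alox5ap (-0.82), Pla2g4a (-0.54), Abcc1 (-0.94), Mgst3 (-0.24), Slc27a4 (-0.32), Gpx4 (-0.31) and Stat6 (-1.03), with Abcc1 and Stat6 then past the threshold, and Ptgr1 was no longer called (0.21, adjusted p = 0.503, edgeR). Leaving out 1 library reversed Alox12 (-0.093 without knockout replicate 2, with a range up to 1.60) and Lta4h (-0.025 without overexpression replicate 2, with a range up to 0.25). In those fits 2 to 4 members, 17 to 21 pathway genes and 4230 to 5821 of all genes passed. The 4 members came without knockout replicate 1 and included Alox12 and Alox5. Alox5 entered that fit only through its reads in knockout replicates 2 and 3. Scaling to the epithelial list lowers every gene together, so the reversals under it follow that common shift. The cause of the changes with 1 library left out was not tested. With the replicate number as a block, 2 members, 22 pathway genes and 5593 of all genes passed; same-numbered libraries did not deviate together (correlations of 0.0508, 0.0223 and -0.0399), so the numbers were not taken as pairs. Low counts limit Alox12b, Alox5 and Ltc4s, which had at most 4 counts in any overexpression library.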
